A study of Homo sapiens with 23 samples.

Results

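Caco-2 cells, an intestinal epithelial line from a human colorectal tumour, and HepG2 cells, a hepatocyte-like line from a human liver tumour, were compared while they shared one circulating medium and one load of free fatty acids (FFAs). The comparison took the 3 libraries of co-cultured, FFAs-treated Caco-2 cells and the 3 libraries of co-cultured, FFAs-treated HepG2 cells, 6 of the 23 libraries of the series. Both lines were kept on the iGLC platform (for integrated gut and liver on a chip), a microfluidic device in which a gut chamber and a liver chamber are joined in a closed loop. They received 1 mM FFAs, palmitic acid and oleic acid at 1:2, for 1 day. The labels give 0.5% fetal bovine serum in the medium during treatment, whereas the methods describe a medium with 1% bovine serum albumin. The other libraries used for comparison came from mono-culture without FFAs, mono-culture with FFAs (3 libraries of each line in both) and co-culture without FFAs (2 Caco-2 libraries and 3 HepG2 libraries). Each line is a single tumour-derived line, so line and organ of origin cannot be told apart.

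Polyadenylated RNA was amplified and sequenced, and each library was deposited as TPM, a measure of transcript abundance that corrects for transcript length and sums to the same total in each library. TPM keep no read counts, so the sequencing depth behind each value is unknown. Each table listed 60564 genes, and 15447 of them, 12883 protein-coding, averaged 1 TPM or more in either line and were tested. Genes above 0 TPM numbered 21939, 22126 and 23252 in the Caco-2 libraries and 20307, 20438 and 22416 in the HepG2 libraries. Line differences are Caco-2 minus HepG2 on the log2(TPM + 1) scale, which understates the change of genes with low TPM. Each is given ± SE of the limma model, and a gene was called when its Benjamini-Hochberg adjusted p was under 0.05. The study's methods describe biological replicates and independent experiments for the sequencing, but the labels do not tie each library to a chip, culture or experiment, so the p-values measure the spread between these libraries, part of which may be technical. In bulk RNA, fewer cells of a kind and less RNA per cell cannot be told apart.

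Intestinal absorptive cells and hepatocytes both arise from endoderm and share much of their lipid machinery, since both take up fatty acids, store triglycerides in droplets and secrete lipoproteins. They are told apart by their transcription factors, with CDX2 specifying intestine and HNF4A active in both organs. They also differ in what they release into blood or lumen: hepatocytes make albumin, clotting factors and complement, while enterocytes carry digestive enzymes and transporters on a brush border. In the gut-liver axis, signals pass through the portal circulation in one direction and through bile and blood in the other. FGF19 is a textbook example of an intestinal hormone read by a hepatic receptor.

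Promoter sequence was examined for letters bound by CDX factors, because CDX2, the intestinal member, differed widely between the lines (6.03 ± 0.19 on the log2 scale). The windows were the 300 bases from 250 before to 50 after each RefSeq start (GRCh38.p14), and they were searched on both strands for TTTATG, which reads CATAAA when the match is on the opposite strand. These letters occurred in 76 of 933 windows (8.15%) of genes called at least 4-fold higher in Caco-2 cells and in 36 of 425 (8.47%) of genes called at least 4-fold higher in HepG2 cells. They occurred in 5.27% of 10684 windows of genes tested and in 11% of all 27305 windows. The match farthest upstream in each window lay before the start in 74 of 76 and 34 of 36. The HNF4 letters CAAAGTCCA, searched in the same way and without removing overlaps between motifs, were in 0.857%, 0.706%, 0.346% and 0.359% of these windows in the same order. The stretches below show CDX letters before the start with up to 30 bases on each side, read 5′ to 3′ on the gene's strand, with the matched letters in capitals. The first 2 genes were higher in Caco-2 cells and the last 5 in HepG2 cells, and they are shown so that the same letters can be compared upstream of genes that differ in opposite directions.
CHI3L1, chr1:203186743-203186808 (-): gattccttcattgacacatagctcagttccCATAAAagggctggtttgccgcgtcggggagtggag
SI, chr3:165078697-165078746 (-): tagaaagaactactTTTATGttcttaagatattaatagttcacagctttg
IL1RN, chr2:113117915-113117970 (+): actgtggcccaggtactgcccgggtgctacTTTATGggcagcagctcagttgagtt
CCL20, chr2:227813698-227813763 (+): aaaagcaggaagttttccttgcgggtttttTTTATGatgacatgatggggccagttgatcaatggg
AFP, chr4:73436033-73436098 (+): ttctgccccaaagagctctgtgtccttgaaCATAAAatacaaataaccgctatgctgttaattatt
NR1H4, chr12:100503242-100503307 (+): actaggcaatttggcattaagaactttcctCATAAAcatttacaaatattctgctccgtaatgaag
HAMP, chr19:35282468-35282527 (+): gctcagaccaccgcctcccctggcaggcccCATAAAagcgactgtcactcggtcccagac

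The matched letters shown end 20 bases before the start in IL1RN, 24 in HAMP, 68 in CHI3L1 and 230 in SI. Where a window held several matches, only the one farthest upstream is shown. The window of SI held 3 matches and that of AFP 2, so letters nearer the start are not shown for these genes. A match is a description of the sequence and not evidence of binding. CHI3L1 was at 257, 229 and 327 TPM in Caco-2 cells against 0.75, 0.62 and 0.68 TPM in HepG2 cells, and the levels of the other genes shown are given below with their groups.

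Most genes differed between the lines despite the shared medium. Of the 15447 genes tested, 5963 (38.6%) were called higher in Caco-2 cells and 3129 (20.3%) higher in HepG2 cells. At least a 4-fold difference on the log2(TPM + 1) scale was called for 1360 genes (8.8%) higher in Caco-2 cells and 665 genes (4.31%) higher in HepG2 cells. The 3 libraries of one line lay wholly above the 3 of the other for 6614 genes (42.8%) with Caco-2 cells above and 3507 genes (22.7%) with HepG2 cells above. A further 6355 genes were not called, and 725 of these had an unadjusted p under 0.05. Correlations of log2(TPM + 1) across genes, which are not independent replicates, ranged from 0.971 to 0.981 within a line and from 0.776 to 0.825 between lines.

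The split between the lines depended on scaling. The median difference over all genes tested was 0.27 in favour of Caco-2 cells, and the 10 most abundant genes took 6.04% to 7.02% of TPM in Caco-2 libraries against 13.1% to 13.7% in HepG2 libraries. FTL, the light chain of the iron store ferritin, was at 13331, 15037 and 12369 TPM in Caco-2 cells and at 38433, 38036 and 33275 TPM in HepG2 cells. Caco-2-higher genes made up 65.6% of the calls as deposited, 49.9% after quantile normalization and 52.4% after median-of-ratios scaling. Relative to the median of all genes, 1100 genes were at least 4-fold higher in Caco-2 cells and 836 higher in HepG2 cells. List medians are therefore given beside the overall median of 0.27.

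**Figure D1:**
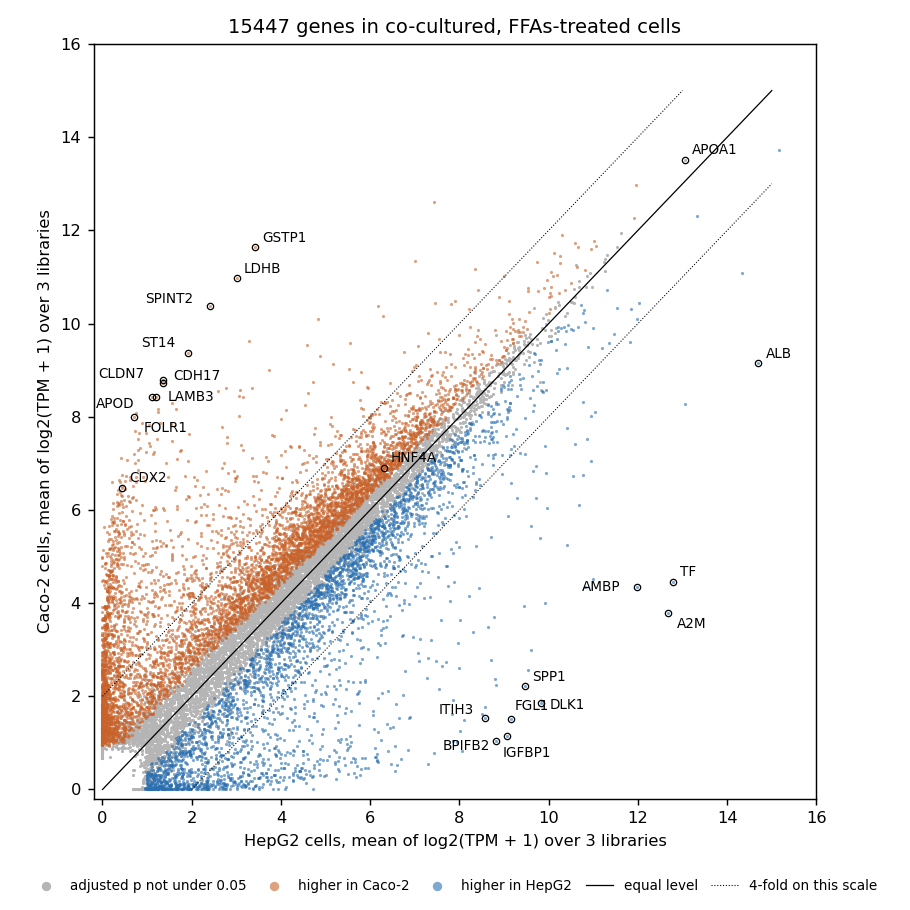
Mean log2(TPM + 1) over 3 libraries of co-cultured, FFAs-treated HepG2 cells (horizontal) and Caco-2 cells (vertical) for the 15447 genes tested, coloured by call, with solid and dotted lines for equal level and 4-fold difference. Orange marks the 5963 genes called higher in Caco-2 cells, above the diagonal, and blue the 3129 called higher in HepG2 cells, below it, and the named genes at the edges include GSTP1 and CDX2 above and A2M and ALB below.

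Before single genes are described, 1 library needs mention. As markers of a line, genes were taken that had at least 50 TPM in its mono-cultured control libraries and did not exceed 1 TPM in the mono-cultured control libraries of the partner line, so that their sum in those libraries was low by choice. The 34 HepG2 markers so chosen summed in the Caco-2 libraries to 2.08%, 0.242% and 0.105% of their HepG2 level, against 0.111% to 0.183% in mono-cultured Caco-2 libraries with FFAs and 0.825% and 0.0883% in co-cultured control ones, none of which was used in the choice. Caco-2 replicate 1 was thus high for HepG2 markers. It was the highest Caco-2 library for 449 of the 665 genes at least 4-fold higher in HepG2 cells, against 157 for replicate 2 and 59 for replicate 3. The 63 Caco-2 markers summed in the HepG2 libraries to 0.613%, 0.282% and 0.542% of their Caco-2 level, against 0.172% to 0.242% in mono-culture with FFAs and 0.190% to 0.249% in co-cultured controls. Of the 1360 genes at least 4-fold higher in Caco-2 cells, HepG2 replicates 1, 2 and 3 were the highest HepG2 library for 605, 279 and 476. Whether medium, carried-over cells or library handling produced this was not tested. Without Caco-2 replicate 1, 5370 genes were called higher in Caco-2 cells and 2727 higher in HepG2 cells, with 1410 and 687 at least 4-fold.

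Of genes with at least 50 TPM in the higher line, the widest differences in favour of Caco-2 cells were those of GSTP1 and LDHB. GSTP1, a glutathione transferase that conjugates electrophiles (chromosome 11, 67583742 to 67586656, GRCh38), was at 3522, 3008 and 3070 TPM in Caco-2 cells and at 19.6, 3.97 and 11 TPM in HepG2 cells. Its difference of 8.22 ± 0.44 was the largest of the genes of at least 50 TPM (limma, adjusted p = 4.14e-06). LDHB, the lactate dehydrogenase subunit that favours lactate use, was at 2099, 1858 and 2055 TPM against 9.85, 4.50 and 7.76 TPM. The lowest Caco-2 library lay far above the highest HepG2 library for both enzymes.

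The other genes of the 10 widest were of several kinds. SPINT2, an inhibitor of serine proteases, was at 1272, 1442 and 1266 TPM in Caco-2 cells and 7.52, 1.58 and 5.96 TPM in HepG2 cells. ST14, which encodes the membrane protease matriptase that SPINT2 inhibits, was at 644, 681 and 663 TPM against 4.18, 1.38 and 3.39 TPM. Protease and inhibitor differed by a similar amount, 7.45 ± 0.27 for ST14 and 7.95 ± 0.40 for SPINT2. CDH17, the liver-intestine cadherin, differed by 7.44 ± 0.29, and CLDN7, a tight-junction claudin, by 7.36 ± 0.22. APOD (7.33), a small lipid-binding lipoprotein component, CHI3L1 (7.32), a chitinase-like secreted protein, FOLR1 (7.27), a folate receptor, and LAMB3 (7.21), a laminin chain of basement membrane, completed the 10 widest.

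The widest differences in favour of HepG2 cells were those of A2M and TF. A2M, the broad protease inhibitor alpha-2-macroglobulin (chromosome 12, 9067664 to 9116229), was at 78.1, 8.28 and 2.55 TPM in Caco-2 cells and at 5925, 6644 and 6968 TPM in HepG2 cells. TF, the plasma iron carrier transferrin, was at 133, 10.2 and 6.06 TPM against 6987, 6887 and 7387 TPM. Both genes were highest in Caco-2 replicate 1 among the Caco-2 libraries, the library that stood high for HepG2 markers. The difference was -8.88 ± 0.96 for A2M (limma, adjusted p = 1.43e-04) and -8.33 ± 0.95 for TF, and it was -10.14 and -9.64 without that library.

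The other members of this top group followed the same order among Caco-2 libraries. DLK1, a membrane ligand of hepatoblasts, was at 19.2, 0.85 and 0.26 TPM in Caco-2 cells and at 757, 1120 and 879.5 TPM in HepG2 cells. BPIFB2, a lipid-binding protein family member, differed by -7.92, IGFBP1, a hepatic binder of insulin-like growth factors, by -7.77, and FGL1, a fibrinogen-like hepatocyte protein, by -7.65. AMBP, the precursor of alpha-1-microglobulin and bikunin, differed by -7.62 and SPP1, the matrix cytokine osteopontin, by -7.25. FST, a secreted blocker of activins, and ITIH3, a hyaluronan-linked plasma inhibitor chain, differed by -7.25 and -7.04. Without Caco-2 replicate 1 these differences ran from -7.60 for ITIH3 to -9.22 for DLK1, each further from 0. Of these genes IGFBP1 and FST varied most within HepG2 cells, IGFBP1 at 103, 701 and 1233 TPM and FST at 112, 323 and 524 TPM, yet the lines did not overlap.

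Both cell labels were checked against marker lists. Of 22 intestinal epithelial markers, 17 were tested, 14 were called higher in Caco-2 cells and 2 higher in HepG2 cells, with a median difference of 3.17 against 0.27 over all genes. This compares with 38.6% and 20.3% of all genes tested called in the same directions. Summed over the list, the Caco-2 libraries held 1975, 2160 and 1924 TPM and the HepG2 libraries 455, 493 and 507 TPM. CDX1, GPA33, KRT20, MUC2 and SLC5A1 were below the 1 TPM limit in both lines. Of 22 hepatocyte markers, 21 were tested, 16 were called higher in HepG2 cells and 1 in Caco-2 cells, with a median of -2.21. The Caco-2 count was 3 without Caco-2 replicate 3 and 2 without HepG2 replicate 1, with the replicate block and after quantile normalization. The list summed to 71486, 77499 and 81724 TPM in HepG2 cells against 20424, 24704 and 15751 TPM in Caco-2 cells. CYP2E1, a drug-metabolising enzyme of mature hepatocytes, was under the limit in both lines.

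CDX2, the homeobox factor that specifies intestinal identity (chromosome 13, 27960918 to 27969315), was at 78.4, 106 and 82.3 TPM in Caco-2 cells and at 0.32, 0.21 and 0.58 TPM in HepG2 cells, a difference of 6.03 ± 0.19 (limma, adjusted p = 6.53e-07). PHGR1, an intestinal epithelial protein, differed by 6.01 and TFF3, a mucosal trefoil peptide, by 5.27. Of the brush-border enzymes, ALPI, intestinal alkaline phosphatase, was at 23, 29.8 and 16.2 TPM and SI, sucrase-isomaltase, at 13.5, 16.6 and 12.4 TPM in Caco-2 cells. HepG2 libraries held at most 0.20 TPM of ALPI and 0.07 TPM of SI. VIL1, the microvillus actin bundler, was shared at a high level, at 510.2, 551 and 431 TPM in Caco-2 cells and 187, 171 and 182 TPM in HepG2 cells.

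3 intestinal markers went the other way or were not called. ANPEP, the peptidase aminopeptidase N, was at 8.59, 8.4 and 2.96 TPM in Caco-2 cells and at 140.3, 165 and 166 TPM in HepG2 cells, so that this brush-border enzyme was higher in the liver line by 4.47 on the log2 scale. FABP2, the intestinal fatty-acid-binding protein, was at 0.03, 0 and 0 TPM in Caco-2 cells and 1.00, 1.52 and 2.7 TPM in HepG2 cells. MEP1A, a meprin metalloprotease subunit, was at 19.0, 22.6 and 19.9 TPM in Caco-2 cells but at 33.1, 66.5 and 0.64 TPM in HepG2 cells, and was not called (0.46 ± 1.20). HepG2 replicate 3 decided its sign, since without that library the difference was -1.16 (adjusted p = 0.0106).

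ALB, the main plasma protein made by liver (chromosome 4, 73397114 to 73421482), was at 23184, 28982 and 27925 TPM in HepG2 cells and at 769, 714 and 328 TPM in Caco-2 cells, a difference of -5.55 ± 0.30 (limma, adjusted p = 4.35e-06). AFP, the fetal counterpart of albumin, was at 8025, 8073 and 9725 TPM against 414, 386 and 179.5 TPM. FGA, the fibrinogen alpha chain, was at 1693, 1591 and 1597 TPM against 75.2, 74.9 and 56.6 TPM, and differed by -4.55 ± 0.13. None of the 3 was absent from Caco-2 cells, where the lowest value was 56.6 TPM of FGA. VTN, the adhesive plasma protein vitronectin, was the exception in direction, at 1339, 1382 and 1118 TPM in Caco-2 cells and 316, 280.1 and 289.6 TPM in HepG2 cells.

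APOA1, the main protein of high-density lipoprotein and a product of both gut and liver, was at 12031, 15488 and 8690 TPM in Caco-2 cells and at 9141, 8623 and 7725 TPM in HepG2 cells. The lines overlapped and the gene was not called (0.47 ± 0.20, limma, adjusted p = 0.076). It was called higher in Caco-2 cells after quantile normalization (1.51) and without Caco-2 replicate 3 (0.69). TTR, the thyroxine carrier transthyretin, was at 255, 342 and 234 TPM against 401, 371 and 322 TPM and was not called either (-0.41 ± 0.16). TTR was called higher in HepG2 cells after quantile normalization (-0.47) and median-of-ratios scaling (-0.66), with the replicate block (-0.41, limma, adjusted p = 0.0270) and without Caco-2 replicate 2 (-0.57) or HepG2 replicate 3 (-0.49).

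**Figure D2:**
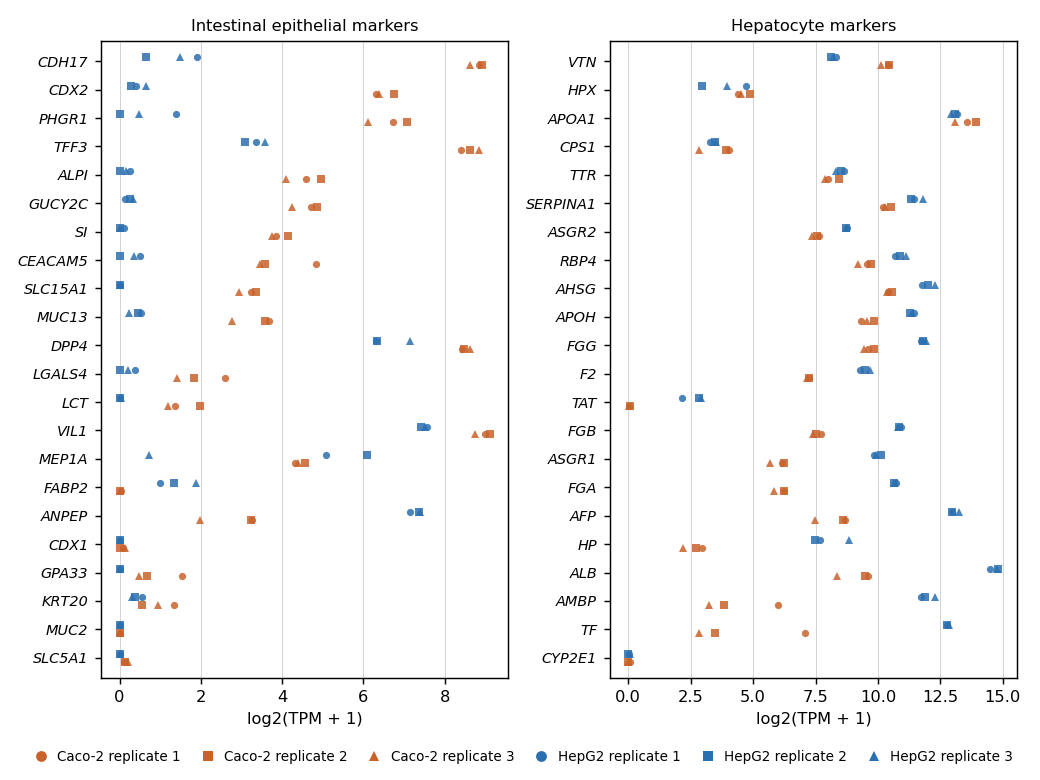
Level of each intestinal and hepatocyte marker in every library as log2(TPM + 1), with one symbol per replicate and one colour per line. The Caco-2 and HepG2 points are apart for CDX2, ALPI, ALB and AFP, overlap for APOA1, and are reversed against the list name for ANPEP, FABP2 and VTN, while MEP1A has 1 HepG2 library far from the other 2.

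Markers of other cell types were low, and most were below the limit. The 8 fibroblast and stromal markers summed to 43.7 to 67.2 TPM in Caco-2 cells and 4.41 to 13.3 TPM in HepG2 cells. Of these, COL1A2, DCN, THY1 and FAP were under 1 TPM in both. 4 of the 8 were tested, 3 were called higher in Caco-2 cells and 0 higher in HepG2 cells. Over all genes tested the shares were 38.6% and 20.3%, which also stand beside the endothelial and immune counts below. So few genes were tested in each of these lists that the counts describe single genes and not a trait of a line. COL1A1, a collagen chain, was at 29.9, 42.4 and 27.4 TPM in Caco-2 cells and 0.52, 1.86 and 0.63 TPM in HepG2 cells. LUM and COL3A1 were also called higher in Caco-2 cells (2.82 and 1.24), while PDGFRB was not called (0.58). The 8 endothelial markers summed to 41.0 to 49.2 TPM in Caco-2 cells and 6.13 to 8.08 TPM in HepG2 cells. Of these 3 were tested and called higher in Caco-2 cells, led by EGFL7 at 37.3, 36.4 and 30.4 TPM against 1.14, 0.46 and 0.92 TPM, while CDH5, VWF, CLDN5, TIE1 and ROBO4 were under the limit. ESAM, 1 of these 3, lost its call after quantile normalization (0.17) or median-of-ratios scaling (0.35), in the fit of all 23 libraries (0.56) and without Caco-2 replicate 1 (0.54) or 2 (0.53) or HepG2 replicate 2 (0.54), which left 2 calls. The 8 immune markers summed to 76.6 to 91.1 TPM in Caco-2 cells and, almost entirely from LYZ, to 701 to 846 TPM in HepG2 cells. Of these 4 were tested. CD14 and CSF1R were called higher in Caco-2 cells and LYZ, the antibacterial enzyme lysozyme, in HepG2 cells, at 682, 816 and 826 TPM against 55.8, 48.4 and 43.7 TPM, while the lymphocyte and leukocyte markers PTPRC, CD3E, CD79A and MS4A1 were under the limit.

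Transcription factors that set gut and liver identity were divided between the lines. Of 26 on the list, 25 were tested, 11 were called higher in Caco-2 cells, 10 in HepG2 cells and 4 neither way, with a median of 0.25. The shares over all genes tested were 38.6% and 20.3% and the median was 0.27, so the Caco-2 count lay near that background. The GATA factors, zinc-finger regulators of endoderm, differed in opposite directions. GATA6 was at 107, 121 and 112 TPM in Caco-2 cells and at 8.72, 6.56 and 5.11 TPM in HepG2 cells (3.9 ± 0.18), whereas GATA4 was at 7.46, 6.44 and 4.95 TPM in Caco-2 cells and 70.7, 67.9 and 71.8 TPM in HepG2 cells (-3.30 ± 0.16). Neither line overlapped the other for either gene.

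KLF5, a factor of proliferating crypt epithelium, and ELF3, an epithelial ETS factor, were higher in Caco-2 cells by 4.27 ± 0.26 and 3.81 ± 0.34. FOXA1, a pioneer factor that opens endodermal chromatin, was higher by 2.03 ± 0.14, at 262, 257 and 247 TPM against 75.5, 55.7 and 55.5 TPM. On the HepG2 side, the bile acid receptor NR1H4 was at 24.1, 57.5 and 52.0 TPM against 1.03, 0.70 and 0.18 TPM in Caco-2 cells, and the xenobiotic receptor NR1I2 at 12.6, 19.6 and 12.8 TPM against 1.09, 2.50 and 0.37 TPM. SOX9, a progenitor factor of crypt and bile duct, was higher in HepG2 cells, at 144, 182 and 144 TPM against 56.8, 78.6 and 58.2 TPM.

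HNF4A, a nuclear receptor of both organs, was at 121, 125 and 111 TPM in Caco-2 cells against 95.9, 83.0 and 59.6 TPM in HepG2 cells, and its call (0.60 ± 0.18, limma, adjusted p = 0.0198) was lost after either scaling (0.40 and 0.35) and without Caco-2 replicate 1 (0.59) or 2 (0.57).

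HOX genes record position along the body axis and are switched on in sequence toward the posterior. Of 39 HOX genes 21 were tested, 16 were called higher in Caco-2 cells and 1 higher in HepG2 cells, and the median was 2.28. For all genes tested the shares were 38.6% and 20.3% and the median 0.27. HOXB7 (chromosome 17, 48607232 to 48633572) was at 44.9, 49.5 and 42.0 TPM in Caco-2 cells and at 0.48, 0 and 0.41 TPM in HepG2 cells (5.18 ± 0.20, limma, adjusted p = 1.20e-06). HOXA7, HOXC12, HOXA9 and HOXA10 were higher by 4.64, 4.52, 4.18 and 3.85. The most posterior groups were included, with HOXC13 at 12.9, 12.6 and 12.8 TPM and HOXB13 at 5.03, 5.71 and 5.12 TPM in Caco-2 cells, against at most 0.19 and 0.06 TPM in HepG2 cells.

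HOXD1, an anterior member (chromosome 2, 176188668 to 176190907), was the only HOX gene called higher in HepG2 cells with the TPM as deposited, at 14.5, 15.4 and 29.4 TPM against 1.13, 0.10 and 0.13 TPM (-3.84 ± 0.36). Under either scaling 2 HOX genes were called higher in HepG2 cells.

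**Figure D3:**
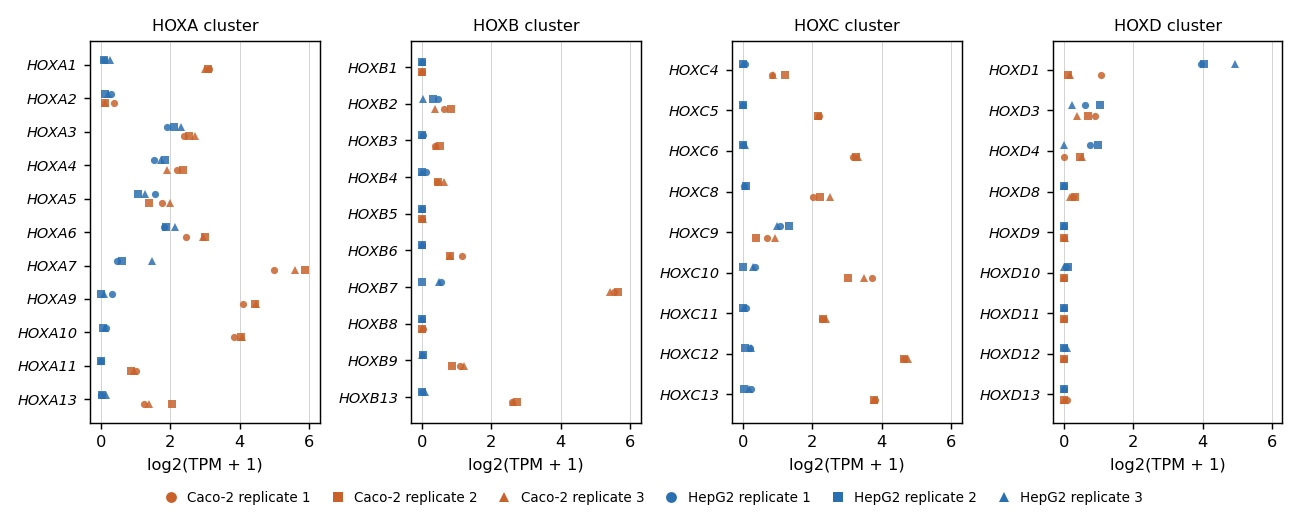
Level of the 39 HOX genes in every library as log2(TPM + 1), with one panel per cluster, anterior genes at the top, orange for Caco-2 cells, blue for HepG2 cells and one symbol per replicate. Caco-2 points lie to the right of HepG2 points for the 16 genes called higher in Caco-2 cells, among them HOXB7 and HOXC12, and HOXD1 has its HepG2 points far to the right.

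Genes that take up, activate and bind fatty acids were divided, with a lean to HepG2 cells. Of 22 on the list 19 were tested, 6 were called higher in Caco-2 cells and 10 higher in HepG2 cells, with a median of -0.60. All genes tested had shares of 38.6% and 20.3% and a median of 0.27. The carriers inside the cell differed in opposite directions, although FABP1 was the more abundant of the 2 genes given here in both lines. FABP3, the muscle-type fatty-acid-binding protein, was at 42.8, 54.8 and 28.4 TPM in Caco-2 cells and at 0.08, 0.15 and 0.18 TPM in HepG2 cells (5.19 ± 0.25), while FABP1, the liver type that enterocytes share, was at 833, 1104 and 725 TPM in Caco-2 cells and 3037, 3451 and 2117 TPM in HepG2 cells (-1.68 ± 0.21).

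Transporters and activating enzymes also differed in both directions. SLC27A3, an acyl-CoA synthetase of the transporter family, was higher in Caco-2 cells by 2.80 ± 0.17, and SLC27A5, which activates bile acids and very long chains in liver, was higher in HepG2 cells by 2.03 on the log2 scale, at 49.7, 41.9 and 25.3 TPM against 9.64, 7.94 and 7.80 TPM. ACSL4, the synthetase that prefers arachidonic acid, was at 90.8, 119.7 and 114 TPM in HepG2 cells and 15.1, 13.1 and 16.8 TPM in Caco-2 cells. FFAR4, a cell-surface receptor of long-chain fatty acids, was at 3.99, 2.87 and 3.40 TPM in Caco-2 cells and at most 0.07 TPM in HepG2 cells. CD36, a scavenger receptor that takes up fatty acids, was low in both, at 0.04, 0.73 and 0.31 TPM against 1.68, 1.86 and 1.54 TPM.

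Of 25 genes of triglyceride synthesis, droplets and lipolysis, 22 were tested, 9 were called higher in Caco-2 cells and 8 higher in HepG2 cells, with a median of -0.04, against 38.6%, 20.3% and 0.27 over all genes tested. The Caco-2 share was thus that of the background. The HepG2 count was 5 without Caco-2 replicate 1 and 5 without HepG2 replicate 2. G0S2, the inhibitor of the lipase that opens droplets (chromosome 1, 209675412 to 209676390), was at 176, 334 and 215 TPM in Caco-2 cells and at 0.67, 0.62 and 1.3 TPM in HepG2 cells (6.99 ± 0.26, limma, adjusted p = 1.02e-06). AGPAT2, the second acyltransferase of glycerolipid synthesis, was at 167, 193 and 159 TPM against 6.57, 6.60 and 4.74 TPM. DGAT2, the last enzyme of triglyceride synthesis, was at 252, 294 and 225 TPM against 84.1, 83.3 and 34.6 TPM. All 3 were higher in the gut line with no overlap.

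LIPE, hormone-sensitive lipase, was at 6.47, 10.5 and 6.86 TPM in Caco-2 cells and at most 0.06 TPM in HepG2 cells. MOGAT2, the monoacylglycerol acyltransferase used by enterocytes to rebuild triglyceride after a meal, went against its textbook tissue, at 0.45, 0.96 and 0.58 TPM in Caco-2 cells and 16.1, 19.8 and 7.98 TPM in HepG2 cells (-3.16 ± 0.32). PLIN2, the coat protein of droplets in both organs, was higher in HepG2 cells, at 404, 456 and 636 TPM against 223, 239 and 254 TPM (-1.03 ± 0.17).

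Of 23 genes of fatty acid oxidation and ketogenesis, 22 were tested, 9 were called higher in Caco-2 cells and 5 higher in HepG2 cells, with a median of 0.41. These shares lay near the 38.6% and 20.3% of all genes tested, whose median was 0.27. PPARGC1A, the coactivator that drives mitochondrial oxidation in fasted liver, was at 0.21, 0.08 and 0 TPM in Caco-2 cells and 14.2, 26.6 and 30.4 TPM in HepG2 cells (-4.43 ± 0.29).

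Smaller differences ran through the oxidation list. ECHS1, the short-chain enoyl-CoA hydratase, was at 973, 964 and 837 TPM in Caco-2 cells and 383, 340.3 and 298 TPM in HepG2 cells (1.44 ± 0.12). ETFB, an electron carrier from the oxidation step to the respiratory chain, was at 545, 479 and 460.0 TPM against 1170, 1176 and 1158 TPM (-1.24 ± 0.10). PDK4, a kinase that turns glucose oxidation off when fatty acids are burned, was at 2.38, 5.14 and 3.49 TPM against 0.14, 0.25 and 0.27 TPM. After quantile normalization the list held 7 genes higher in each line.

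Lipoprotein genes leaned to HepG2 cells. Of 21 on the list 20 were tested, 9 were called higher in HepG2 cells and 3 in Caco-2 cells, with a median of -0.63, and all 7 that reached 4-fold were higher in HepG2 cells. Among all genes tested, 20.3% were called higher in HepG2 cells and 38.6% in Caco-2 cells, and the median was 0.27. APOB, the structural protein of chylomicrons and very-low-density lipoprotein (chromosome 2, 21001429 to 21044073), was at 1101, 1487 and 2204 TPM in HepG2 cells and at 153, 185 and 174 TPM in Caco-2 cells (-3.16 ± 0.23, limma, adjusted p = 1.85e-05). MTTP, which loads lipid onto APOB, was at 122, 134 and 115 TPM against 15.2, 9.59 and 4.30 TPM. Loader and scaffold were higher in the same line, by 3.69 and 3.16 on the log2 scale.

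APOC2, the cofactor of lipoprotein lipase, was at 475, 501 and 379 TPM in HepG2 cells and at 11.7, 3.11 and 1.02 TPM in Caco-2 cells. Its difference of -6.57 ± 0.57 was -7.29 without Caco-2 replicate 1. APOA2, a second protein of high-density lipoprotein, was at 20070, 22332 and 19323 TPM against 2613, 2030 and 1920 TPM. LCAT, the plasma enzyme that esterifies cholesterol, and APOA5, a regulator of plasma triglyceride, were higher in HepG2 cells by 3.53 and 2.73 on the log2 scale. APOC3, an inhibitor of triglyceride clearance, was higher in Caco-2 cells, at 972, 1389 and 689 TPM against 331, 249 and 329.8 TPM (1.70 ± 0.25), and APOE, a remnant-uptake ligand, by 0.77 ± 0.13.

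Of 32 adhesion and junction genes 31 were tested, 15 were called higher in Caco-2 cells and 9 higher in HepG2 cells, with a median of 0.35, against 38.6%, 20.3% and 0.27 over all genes tested, so the list as a whole lay near the background. CDH1, the epithelial cadherin (chromosome 16, 68737292 to 68835537), was at 696, 879 and 816 TPM in Caco-2 cells and at 13, 8.79 and 5.88 TPM in HepG2 cells (6.34 ± 0.24, limma, adjusted p = 1.11e-06). CDH2, the neural cadherin that hepatocytes also carry, was at 20.2, 20.3 and 58.9 TPM in HepG2 cells and 1.63, 0.95 and 0.38 TPM in Caco-2 cells (-3.97 ± 0.44). OCLN, a tight-junction membrane protein, and EPCAM, an epithelial adhesion molecule, were both higher in Caco-2 cells by 2.61.

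Ligands and receptors were compared because the loop carries what each line releases to the other. Of 122 ligand genes 80 were tested, 36 were called higher in Caco-2 cells and 27 higher in HepG2 cells, with a median of 0.36. Of 104 receptor genes 72 were tested, 33 were called higher in Caco-2 cells and 17 higher in HepG2 cells, with a median of 0.53. Over all genes tested the shares were 38.6% and 20.3% and the median 0.27, so the receptor counts and the Caco-2 ligand count lay near that background. The ligand classes pointed in different directions. Growth factors were called higher in Caco-2 cells for 14 of 20 tested and in HepG2 cells for 3 (median 1.35), and TGF-beta, Wnt and hedgehog ligands for 8 of 13 and 2 (median 2.49). Carrier proteins and lipoproteins were called higher in HepG2 cells for 7 of 12 and in Caco-2 cells for 2 (median -1.66), and matrix, protease and complement proteins for 6 of 10 and 2 (median -1.90).

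Cytokines and chemokines were called higher in Caco-2 cells for 4 of 15 and in HepG2 cells for 6 (median -0.29), and hormones and peptides for 6 of 10 and 3 (median 1.23). The Caco-2 count of cytokines was 1 after quantile normalization, with no filter on TPM, without Caco-2 replicate 2 and without HepG2 replicate 1, and it was 2 without Caco-2 replicate 3. The HepG2 count of TGF-beta, Wnt and hedgehog ligands was 1 without HepG2 replicate 2.

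Caco-2 cells held ligands of the epidermal growth factor receptor. AREG, amphiregulin, was at 81.1, 178 and 186 TPM in Caco-2 cells and at 13.6, 9.59 and 12.3 TPM in HepG2 cells (3.46 ± 0.31). EREG, epiregulin, was at 10.3, 22.9 and 17.5 TPM against at most 0.20 TPM, and HBEGF, the heparin-binding member, at 12.2, 23 and 30.6 TPM against 1.15, 1.82 and 3.09 TPM. TGFA, another ligand of the same receptor, was in HepG2 cells, at 12.5, 14.0 and 22.0 TPM against 0.76, 0 and 0 TPM (-3.79 ± 0.31). EGFR, the receptor they share, was at 21.9, 38.8 and 31.6 TPM in Caco-2 cells and 9.91, 13.9 and 19.4 TPM in HepG2 cells, and its call (1.05 ± 0.28) was lost without Caco-2 replicate 2 (0.87, adjusted p = 0.055).

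Other factors of growth and patterning were high in the gut line. DKK1, a secreted Wnt antagonist, was at 1320, 1276 and 1394 TPM in Caco-2 cells and at 219, 57.9 and 27.3 TPM in HepG2 cells (4.21 ± 0.63), and LRP6, the Wnt co-receptor it binds, was at 40.3, 50 and 58.4 TPM against 12.8, 19.6 and 22.8 TPM. GAS6, a bridging ligand of TAM receptors, was at 90.0, 105 and 92.0 TPM against 1.17, 0.27 and 0.75 TPM. BMP2 (4.12), a bone morphogenetic protein, IHH (3.98), the hedgehog of intestinal epithelium, PDGFA (4.54), a mitogen of mesenchyme, KITLG (3.79), stem cell factor, and SEMA3A (4.47), a guidance cue, were also higher in Caco-2 cells. EDN1, the vasoconstrictor endothelin, was at 14.0, 67.2 and 84.1 TPM against 1.03, 0.74 and 0.96 TPM, with Caco-2 replicate 1 the lowest of its line.

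Several cytokine, complement and hormone-precursor genes were higher in HepG2 cells. CCL20, a chemokine of mucosal immunity, was at 175, 327 and 270.1 TPM in HepG2 cells and at 5.66, 7.11 and 12.0 TPM in Caco-2 cells (-4.82 ± 0.30), and its receptor CCR6 was at 10.9, 11.7 and 8.30 TPM against 2.05, 2.19 and 3.52 TPM. IL1RN, the natural blocker of interleukin-1, was at 43.3, 62.6 and 73.3 TPM against 0.77, 0.25 and 0.16 TPM, and CX3CL1, a membrane-bound chemokine, at 42.5, 47.7 and 80.4 TPM against 0.73, 0.27 and 0.11 TPM. C3, the central complement protein, was at 1683, 1856 and 1900 TPM against 42.7, 19.1 and 8.38 TPM. AGT, the precursor of angiotensin, was at 1431, 1816 and 2958 TPM against 301, 335 and 169 TPM, and AGTR1, its receptor, at 4.10, 7.35 and 5.40 TPM against at most 0.05 TPM. The lines did not overlap for any of these genes.

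Some ligands and receptors were near equal or varied widely among libraries. MIF, a cytokine with tautomerase activity, was at 2671, 2556 and 2396 TPM in Caco-2 cells and at 2634, 2549 and 2105 TPM in HepG2 cells, with no call (0.07 ± 0.11, -0.18 after median-of-ratios scaling). GDF15, a stress-induced hormone, was at 198, 417 and 656 TPM against 494, 1226 and 1212 TPM and was not called (-1.25 ± 0.49, limma, adjusted p = 0.0567). It was called higher in HepG2 cells after median-of-ratios scaling (-1.50), with the replicate block (-1.25, adjusted p = 0.000570), in the fit of all 23 libraries (-1.25, adjusted p = 0.0139) and without Caco-2 replicate 3 (-1.65) or HepG2 replicate 1 (-1.68), while without Caco-2 replicate 1 it was at -0.78. LRP1, a remnant and protease receptor, was at 9.56, 15.7 and 13.4 TPM against 10.4, 12.9 and 17.6 TPM, and its sign depended on the libraries kept. TFRC, the transferrin receptor, was not called (0.20 ± 0.13). PDGFRB, a receptor of PDGF, was called higher in Caco-2 cells only without HepG2 replicate 3 (1.01).

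Among 135 ligand-receptor pairs 66 had both members tested. In 16 pairs a ligand called higher in Caco-2 cells at 5 TPM or more faced a receptor of at least 5 TPM in HepG2 cells, and in 16 pairs a HepG2 ligand faced a Caco-2 receptor in the same way. These were 16 of 31 pairs with such a Caco-2 ligand and 16 of 27 with such a HepG2 ligand. Ligand and receptor were called higher in opposite lines for 7 pairs with the ligand in Caco-2 cells and for 9 pairs with the ligand in HepG2 cells. Both members were called higher in Caco-2 cells for 14 pairs and in HepG2 cells for 7, and 29 pairs had a member that was not called. Taken singly, 36 of 80 ligand genes and 33 of 72 receptor genes tested were called higher in Caco-2 cells. In HepG2 cells these counts were 27 and 17. With shares this large, unrelated members also give pairs of each kind, so these pair counts are not evidence of matching between the lines. Neither protein nor secretion was measured.

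From gut to liver, FGF19, the ileal hormone that lowers bile acid synthesis, was at 2.07, 2.01 and 7.42 TPM in Caco-2 cells and at 0.04, 0.12 and 0.04 TPM in HepG2 cells (2.00 ± 0.39, limma, adjusted p = 0.00308). Its receptor FGFR4 (chromosome 5, 177086905 to 177098144) was at 159.8, 153 and 146 TPM in Caco-2 cells and 253, 247 and 247 TPM in HepG2 cells (-0.70 ± 0.09), and the co-receptor KLB at 10.4, 12.5 and 7.77 TPM against 47.6, 42.0 and 69.5 TPM (-2.26 ± 0.24). Both receptor parts were thus higher in HepG2 cells but present in both lines, FGFR4 at a high level. The ligand was close to absent from HepG2 cells and stayed below 10 TPM in every library.

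TCN2, the transcobalamin that carries vitamin B12 to cells, was at 50, 60.2 and 52.3 TPM in Caco-2 cells and at 1.65, 0.53 and 0.73 TPM in HepG2 cells (4.84 ± 0.23), and its receptor CD320 at 93.2, 69.8 and 80.2 TPM against 138, 129 and 126 TPM (-0.69 ± 0.13). TGFB2, a transforming growth factor, was at 1.87, 1.44 and 4.77 TPM against at most 0.10 TPM, while TGFBR3, its co-receptor betaglycan, was at 24.5, 21.6 and 22.1 TPM against 125, 156 and 303 TPM. VTN, given above, faced ITGAV, an integrin chain that binds it, at 28.7, 32.1 and 30.9 TPM in Caco-2 cells and 42.4, 47.8 and 53.8 TPM in HepG2 cells. In these pairs the receptor was present in both lines. TCN2 and TGFB2 stayed below 2 TPM in HepG2 cells, whereas VTN was abundant in both lines.

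LIF and IL1B completed this group with weaker support. LIF, a cytokine of the interleukin-6 family, was at 3.04, 6.49 and 8.47 TPM in Caco-2 cells and 1.63, 2.65 and 2.23 TPM in HepG2 cells, and its receptor LIFR at 0.42, 0.24 and 0.32 TPM against 14.5, 20.4 and 28.3 TPM (-4.01 ± 0.25). The LIF call (1.07 ± 0.33) was lost without Caco-2 replicate 2 (0.98) or 3 (0.81), without HepG2 replicate 1 (0.94) and after quantile normalization (0.65). IL1B, interleukin-1 beta, was at 0.67, 1.93 and 0.48 TPM against 0.16, 0.17 and 0 TPM, and its call was lost without any 1 of the HepG2 libraries. IL1R1, the receptor, was at 17.0, 18.0 and 23.9 TPM against 30.7, 28.0 and 44.6 TPM, and its call was lost without Caco-2 replicate 1 or 2.

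From liver to gut, HAMP, the peptide hepcidin that closes the iron exporter ferroportin (chromosome 19, 35280716 to 35285143), was at 15.4, 136 and 45.9 TPM in HepG2 cells and at 4.2, 0.59 and 0 TPM in Caco-2 cells (-4.55 ± 0.83, limma, adjusted p = 0.00214). SLC40A1, which encodes ferroportin, was at 130.2, 219 and 148 TPM in Caco-2 cells and 17.9, 16.1 and 27.8 TPM in HepG2 cells (2.95 ± 0.25). Hormone and target were higher in opposite lines, with wide spread of the hormone among HepG2 libraries, and the target was present in both lines.

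The pairs of SPP1 with CD44, FN1 with ITGA5 and TIMP1 with CD63 had the same arrangement. SPP1 was at 606, 629.7 and 925 TPM in HepG2 cells and 39.6, 1.04 and 0.21 TPM in Caco-2 cells, and CD44, a receptor of hyaluronan and osteopontin, at 2.34, 1.92 and 0.07 TPM against 17.4, 10.8 and 10.5 TPM. FN1, fibronectin, was at 2800, 3267 and 5373 TPM in HepG2 cells and 1322, 1197 and 1292 TPM in Caco-2 cells, and ITGA5, the chain of its classical receptor, at most 0.64 TPM in HepG2 cells against 13.7, 15.9 and 18.9 TPM. TIMP1, an inhibitor of matrix proteases, was at 71.5, 73.6 and 82.3 TPM against 7.13, 3.36 and 1.10 TPM, and CD63, the tetraspanin it binds, at 488, 451 and 599.7 TPM against 2099, 2140 and 2032 TPM. In each of these pairs the ligand was higher in HepG2 cells and the receptor in Caco-2 cells. The pair of SPP1 with ITGAV was not of this kind, since ITGAV was called higher in HepG2 cells (-0.63).

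Receptors of macrophage and epithelial kinases in Caco-2 cells faced HepG2 ligands as well. CSF1, the macrophage growth factor, was at 19.1, 26.8 and 25.9 TPM in HepG2 cells and 1.34, 1.49 and 0.53 TPM in Caco-2 cells, and CSF1R at 0.10, 0.10 and 0.43 TPM against 4.71, 5.47 and 6.36 TPM. MST1, a liver-derived relative of hepatocyte growth factor, was at 80.9, 99.5 and 79.2 TPM against 18.1, 23 and 13 TPM, and its receptor kinase MST1R at 0.72, 0.79 and 0.36 TPM against 12.6, 16.3 and 13.1 TPM. CCL15, a chemokine, was at 25.2, 33.2 and 42.4 TPM against 8.71, 6.99 and 4.61 TPM. CCR1, the receptor of CCL14 and CCL15, was at 2.82, 4.13 and 3.83 TPM in Caco-2 cells and listed at 0 in the 3 HepG2 libraries, while CCL14 was at 2.97, 0.54 and 1.13 TPM in HepG2 cells and listed at 0 in the 3 Caco-2 libraries.

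**Figure D4:**
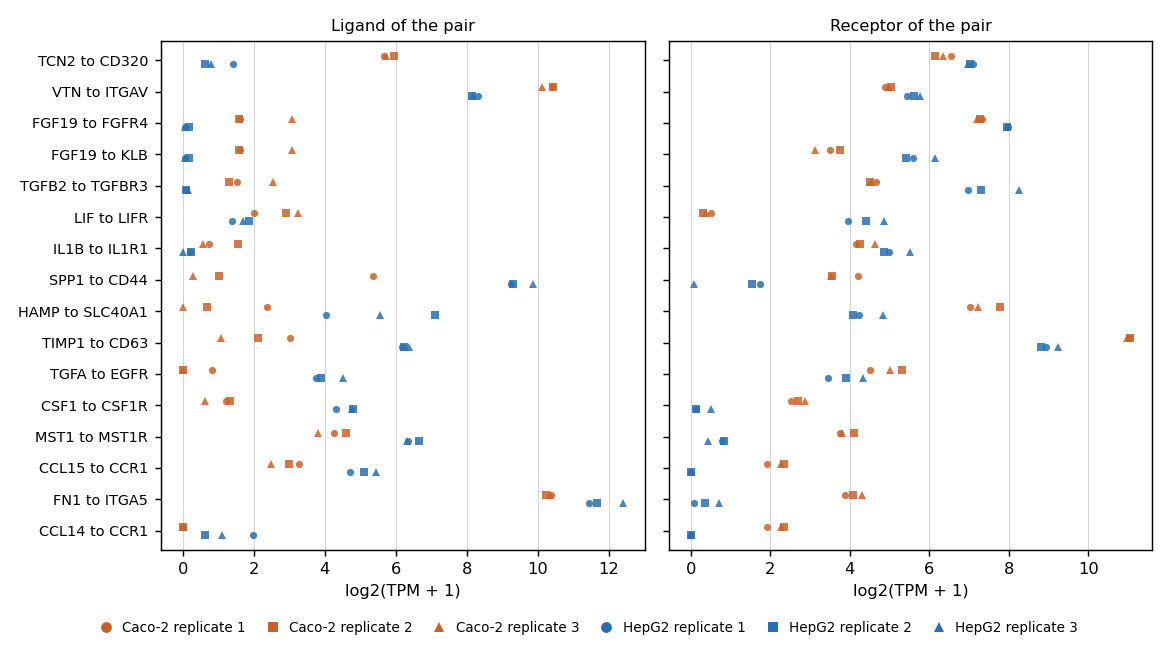
Level of ligand (left) and receptor (right) in every library as log2(TPM + 1) for the 16 pairs whose members were called higher in opposite lines, 7 with the ligand higher in Caco-2 cells and 9 with it higher in HepG2 cells. The colours change sides between the panels in each row, widely for HAMP and SLC40A1 and narrowly for IL1B and IL1R1.

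Next it was asked which of these differences were also present without the shared medium or without FFAs. Each of the other 3 conditions was tested in the same way with its own libraries. The libraries of co-culture with FFAs stand on one side of all 3 overlaps, which are therefore not independent of each other. Of 14973 genes tested both here and in mono-culture without FFAs, 7795 were called in the same direction in both, which is 87.8% of the calls in co-culture with FFAs and 80.3% of those in mono-culture without FFAs. With mono-culture with FFAs 7587 calls were shared (85.3% and 85.1%), and with co-culture without FFAs 7882 (88.5% and 87.6%). At 4-fold or more, 1769, 1748 and 1854 genes were called in both, which is 87.4%, 86.5% and 91.7% of the 4-fold genes in co-culture with FFAs. None of the 4-fold genes was 4-fold in the opposite direction in any of the 3 conditions.

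5 genes were called in opposite directions in co-culture with FFAs and mono-culture without FFAs, among them SPEF2 and PA2G4, and 5 in co-culture with FFAs and mono-culture with FFAs, among them RRP12, ETNK2 and SPTLC3. In co-culture with FFAs the SPEF2 call was lost after quantile normalization (0.54) or median-of-ratios scaling (0.78), with no filter on TPM and in 4 of the 6 fits that left out 1 library. The PA2G4 call was lost with no filter, without a trend and in 4 of those 6 fits, with a difference between -0.43 and -0.26. RRP12 lost its call without Caco-2 replicate 2 (-0.38) or HepG2 replicate 2 (-0.51), and ETNK2 after median-of-ratios scaling (0.44). Between both co-culture conditions 0 genes were opposite. Of the genes at least 4-fold different in co-culture with FFAs, 11, 13 and 8 had a difference of under 2-fold in mono-culture without FFAs, mono-culture with FFAs and co-culture without FFAs.

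The change of the line difference itself was then tested as an interaction in one limma fit of all 23 libraries and 16495 genes. It was called for 0 genes (0%) against mono-culture without FFAs, 2 genes (0.0121%) against mono-culture with FFAs and 4 genes (0.0242%) against co-culture without FFAs. The latter 4 passed the filter only through the 2 Caco-2 libraries of co-culture without FFAs, the only ones in which they were above 0 TPM. At an unadjusted p under 0.05 there were 1423, 1232 and 336 genes, where 5% of the genes tested is 825. A missed call does not show that the line difference was equal in both conditions.

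Within the lists most calls were shared as well, where over all genes 85.3% to 88.5% of the calls were shared. Each of the 17 HOX genes called in co-culture with FFAs, 16 of them higher in Caco-2 cells, was called in the same direction in all 3 other conditions, as were the 17 hepatocyte markers called and the 12 lipoprotein genes called. CDX2 differed by 6.01 in mono-culture without FFAs and 6.03 here, and HOXB7 by 5.22 and 5.18. Of 61 ligand genes called here and tested in both conditions, 60 were also called in mono-culture without FFAs, 57 in mono-culture with FFAs and 59 in co-culture without FFAs. For receptors the counts were 46 of 49, 46 of 49 and 47 of 50. Sharing was not complete for every list. With mono-culture with FFAs it was 13 of 17 for triglyceride genes, 13 of 16 for fatty acid uptake and 21 of 24 for adhesion. These lists shared more of their calls with mono-culture without FFAs and with co-culture without FFAs. No list gene was called in opposite directions in any of the 3 comparisons.

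Fatty acid oxidation shared 9 of 13 calls with mono-culture without FFAs. CPT1A, the gatekeeper of mitochondrial fatty acid entry, differed by 0.53 here and by -0.06 there, from Caco-2 means of 9.64 and 5.52 TPM and HepG2 means of 6.32 and 5.77 TPM. EHHADH and BDH1 were also called here and not there. With mono-culture with FFAs, 13 of 14 calls were shared.

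**Figure D5:**
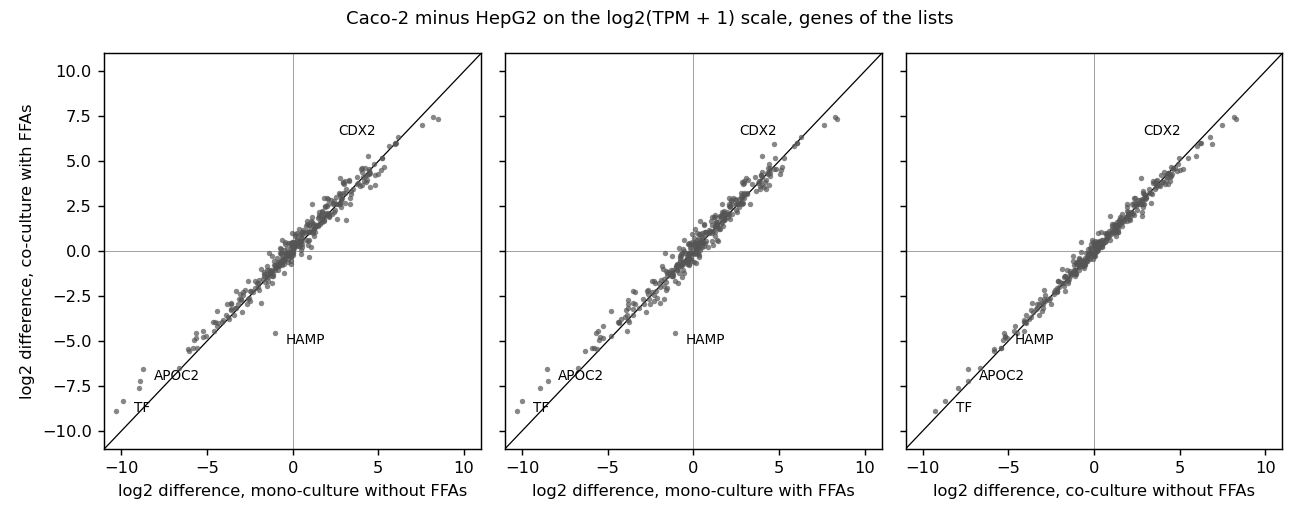
Caco-2 minus HepG2 difference on the log2(TPM + 1) scale for the genes of the lists in co-culture with FFAs (vertical) against the same difference in mono-culture without FFAs, mono-culture with FFAs and co-culture without FFAs (horizontal, left to right). The points follow the diagonal, with the same sign for 313 of 336, 312 of 335 and 319 of 335 genes, and HAMP lies below it in both mono-culture panels.

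A few list genes whose line difference varied in size between conditions are given in full, although none of these changes was called. HAMP differed by -4.55 here, -1.03 in mono-culture without FFAs, -1.10 in mono-culture with FFAs and -5.26 in co-culture without FFAs. Its HepG2 mean was 65.7 TPM here, 1.07 and 2.01 TPM in both mono-culture conditions and 100.7 TPM in co-culture without FFAs. The change of its line difference against mono-culture without FFAs was -3.52 ± 1.07 (limma, unadjusted p = 0.00403, adjusted p = 0.425).

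For fibrinogen and selenoprotein P the values ran the other way. FGA differed by -4.55 here and -5.64 in mono-culture without FFAs, a change of 1.08 ± 0.26 (limma, adjusted p = 0.422), with a Caco-2 mean of 68.9 TPM here and 38.1 TPM there. SELENOP, the plasma selenium carrier, differed by -2.93 and -3.85, a change of 0.92 ± 0.20 (adjusted p = 0.335), with Caco-2 means of 274 and 183 TPM. APOC2 differed by -6.57 and -8.75, with Caco-2 means of 5.27 and 0.443 TPM. APOC2 is 1 of the genes that were highest in Caco-2 replicate 1, and the part of that library in its change was not tested. It is also 1 of the HepG2 markers, so its low level in the mono-cultured Caco-2 controls was fixed by the choice of markers.

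CIDEB, a droplet protein that enlarges lipoprotein particles in liver, differed by -0.12 here, -1.38 in mono-culture without FFAs, -1.64 in mono-culture with FFAs and -0.44 in co-culture without FFAs. Its Caco-2 mean was 63.5 TPM here against 38.2, 34.6 and 41.1 TPM, and its HepG2 mean 68.3 TPM against 100.3, 110.2 and 55.6 TPM. The change was 1.53 ± 0.28 against mono-culture with FFAs (limma, unadjusted p = 3.61e-05, adjusted p = 0.199) and was not called. CLDN7 differed by 7.36 here and 8.46 in mono-culture without FFAs, with HepG2 means of 1.66 and 0.283 TPM. CLDN7 is 1 of the Caco-2 markers, so its low level in those mono-cultured HepG2 libraries was fixed by the choice of markers.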

How the data were processed

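The authors deposited 1 table per library, in TPM computed with RSEM 1.3.0 after removal of rRNA, tRNA and mitochondrial reads (Bowtie2 2.1.0) and mapping to GRCh38 with STAR 2.7.1a and Ensembl 98. cDNA had been amplified from 50 ng of RNA with SMART-Seq v4. TPM carry no counts, so no count model or counting interval was used, and a few very abundant transcripts in one line lower its other TPM.

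Group and replicate number came from each label. Values were analysed as log2(TPM + 1). Genes averaging 1 TPM or more in either group were fitted with limma 3.58.1 (R 4.3.3, eBayes with a trend) on the 6 libraries, with Benjamini-Hochberg adjustment over all genes tested. With 3 libraries against 3, an exact permutation test cannot go below 0.10 and was not used. Interactions came from 1 fit of all 23 libraries in 8 groups. Tables and figures were made with Python 3.11.15 (numpy 2.4.6, pandas 2.3.3, matplotlib 3.10.9). On simulated data for 15447 genes the line comparison recovered, of 200 changed genes, 60% of those changed by 1 on the log2 scale and 94% of those changed by 2, with 9 unchanged genes called. For the interaction against mono-culture without FFAs (16495 genes) it was 49%, 89% and 10. The changed genes were drawn from those with a mean level above that of 5 TPM, the noise was independent between libraries, and all other genes were equal. These figures therefore do not cover genes near 1 TPM, effects shared between libraries, or data in which most genes differ.

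The genes compared, the lists and the pairs were chosen with earlier results of these data known. Named were the 10 genes per direction with the largest difference and at least 50 TPM, up to 6 tested members of each list by size of difference and up to 3 abundant ones not called or under 1 on the log2 scale, up to 10 pairs per direction with a called ligand and a receptor of at least 5 TPM in the other line, the opposite pairs, up to 8 genes per interaction, CDX2 and HNF4A, and the line markers highest in the other line. Other genes given by name, such as VIL1, CPT1A, CCL20 or AGT, were chosen after their values were seen. C4A was in reach of this rule but may share reads with its near-identical copy C4B and is not described, and some other genes the rule covers are not reported here. Coordinates are from GENCODE v44, in which 60295 of 60564 identifiers were found.

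Alternatives were another pseudocount (0.1 TPM), quantile normalization, median-of-ratios scaling, no filter or a mean of 5 TPM, limma without a trend, a replicate block, other sets of libraries in the fit, and leaving out each library.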

Additional observations from a re-analysis of the deposited data

Results flagged for a closer look

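The 6 genes whose line difference passed the adjusted threshold of the interaction test are given here. ETNK2, an ethanolamine kinase (chromosome 1, 204131062 to 204152044), had a line difference that was 1.24 higher in co-culture with FFAs than in mono-culture with FFAs on the log2(TPM + 1) scale (limma, adjusted p = 0.0437). It was at 56.7, 66.9 and 56.5 TPM in Caco-2 cells and 44.2, 30 and 37.2 TPM in HepG2 cells in co-culture with FFAs, against 45.9, 49.1 and 50.2 TPM and 82.1, 67.2 and 65.5 TPM in mono-culture with FFAs. The lines changed places between these conditions. AC020909.3 (chromosome 19, 50480119 to 50483351) differed by 1.55 in the same test (adjusted p = 0.0437). It was at 2.22, 1.36 and 3.03 TPM in Caco-2 cells here, at 0.23, 0 and 0 TPM in mono-culture with FFAs, and listed at 0 in every HepG2 library. AC020909.3 passed the filter only through the Caco-2 libraries here, the group where it was high, so its p-value is not support for a change. Against mono-culture with FFAs 0 genes were called without Caco-2 replicate 1 and 0 without HepG2 replicate 2 or 3.

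Against co-culture without FFAs the line difference changed by -2.04 for AC018797.1 (adjusted p = 3.77e-05), -2.40 for AC125238.1 (4.20e-07), -1.27 for AC099066.3 (0.00874) and -3.69 for AC092960.2 (3.77e-05). All 4 were listed at 0 in 21 of the 23 libraries and above 0 only in the 2 Caco-2 libraries of co-culture without FFAs, at 4 and 2.36, 4.56 and 4.02, 1.77 and 1.10, and 21.8 and 6.31 TPM. In co-culture with FFAs all 4 were listed at 0 in both lines. They passed the filter only through the group where they were above 0, and every other group had no spread. Their small p-values follow from this and are not support for a change.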

How the results depend on the processing

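The line counts kept their order under each alternative except quantile normalization, where 4427 genes were called higher in Caco-2 cells and 4436 higher in HepG2 cells. Median-of-ratios scaling gave 4545 and 4124, no filter 6179 and 3052, a mean of 5 TPM 4788 and 2497, no trend 5835 and 3062, and one fit of all 23 libraries 6448 and 3455. Leaving out 1 library gave 5212 to 5740 and 2654 to 3142, and 1306 to 1410 and 657 to 704 at 4-fold. A pseudocount of 0.1 TPM raised the 4-fold counts to 2191 and 1123, since it shrinks low levels less. Same-numbered libraries of the lines deviated together with correlations of 0.16, 0.059 and 0.15, against -0.15 to 0.0042 for differently numbered ones, so each library correlated best with its own number. The main fit did not take the numbers as pairs, because the labels do not tie them to a chip or experiment. An effect shared by same-numbered libraries is therefore not removed from it. With a replicate block 6208 and 3261 genes were called.

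The counts of interactions were unstable. Against mono-culture without FFAs there were 1 without a trend, 4 with the replicate block, 1 with the 4 groups of the contrast alone and 0 to 10 when 1 library was left out (10 without Caco-2 replicate 3 and 2 without Caco-2 replicate 2). Against mono-culture with FFAs there were 0 after quantile normalization, 0 at a mean of 5 TPM, 1 without a trend, 7 with the replicate block, 0 with 4 groups and 0 to 9 (9 without Caco-2 replicate 3). Against co-culture without FFAs there was 1 at a mean of 5 TPM and 1 with 4 groups, and 4 to 6 when 1 library was left out. The cause was not tested.

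Of 216 genes named or eligible for naming, 176 kept direction and call in each alternative, 18 lost and 14 gained a call in at least 1, and 8 turned sign. Leaving out 1 library moved MEP1A between -1.16 and 1.52, CD68 between -0.26 and 0.11, CIDEB between -0.23 and 0.081 (0.0085 without HepG2 replicate 3), DUS3L between -0.19 and 0.061, LRP1 between -0.24 and 0.11 and MIF between -0.030 and 0.13. ITGB5 was -0.0050 after quantile normalization and -0.10 after median-of-ratios scaling, and TFRC -0.055 and MIF -0.18 after median-of-ratios scaling. The depth of the libraries is unknown, so no detection limit is given for values listed at 0.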
